A study of Mus musculus with 5 samples.

Results

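The facilitative glucose transporters Slc2a1, Slc2a3 and Slc2a4 were each represented by 1 probe, which makes 3 of the 203 named genes and 3 of the 223 probes of the array. They were taken by their annotated symbol. The probes are 19F for Slc2a1, 19G for Slc2a3 and 19H for Slc2a4. All 5 arrays carried RNA from the soleus, a slow postural muscle of the calf, of wild-type C57Bl/6 mice. Every mouse had been reloaded, for 7 days by the series title, meaning that the muscle carried weight again after unloading. The titles number the samples 1, 3, 4, 5 and 6, and they are called mice 1, 3, 4, 5 and 6 here. The input was 3 microgram of total RNA per array, taken from cryosections. These 5 samples form a single group, so the comparisons are between mice and between probes on the same array, no condition was contrasted with another, and no test between conditions was possible. The labels do not describe age, sex or how the animals were sampled. That the arrays came from 5 separate animals is read from their wording alone, which calls each sample a reloaded mouse, so the SDs describe the spread between these samples.

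Facilitative transporters let glucose move across the membrane down its concentration gradient. GLUT1, encoded by Slc2a1, sits at the cell surface and serves basal uptake in many cells, including endothelium and perineurium. GLUT3, encoded by Slc2a3, has a high affinity for glucose and is best known from neurons, though blood cells also hold it. GLUT4, encoded by Slc2a4, is the main transporter of muscle fibres and fat cells. It is kept in internal vesicles and moves to the surface after insulin or contraction, so that the amount of its RNA does not give its activity at the membrane.

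Slc2a4 was the brightest of the transporter probes in every mouse, and it stood well away from the background. Slc2a1 and Slc2a3 were dim in every mouse, and on the array of mouse 5 both lay at the edge of what the array could separate from zero. The signals were linear intensities in arbitrary units. Background subtraction is not described, but each array held values below 0. The size of the lowest value on an array, its sign removed, served here as a yardstick of background. A signal above that size is called clear of the negative values. The signal of a probe depends on the probe as well as on its transcript, so a brighter probe does not show a more abundant transcript. The array of mouse 1 stood apart from the rest in the ranking of its probes, with a mean rank correlation of 0.878 with the other arrays, against 0.941 to 0.947 for the others (across 147 probes above 0 on all arrays, which are not independent). Means and ratios are therefore also given without mouse 1.

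The deposited signal of Slc2a4 was 0.248, 0.101, 0.124, 0.138 and 0.162 in mice 1, 3, 4, 5 and 6. Mouse 1 was highest, mouse 3 lowest, and mice 4, 5 and 6 lay between them. The mean was 0.155 ± 0.0568 (SD, n = 5), a coefficient of variation (CV, SD over mean, in percent) of 36.7%. Without mouse 1 the mean was 0.131 ± 0.0256 (SD, n = 4) and the CV 19.5%, so much of the spread came from that mouse. The highest signal was 2.46 times the lowest.

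The deposited signal of Slc2a1 was 0.0286, 0.0184, 0.0148, 0.0115 and 0.0267 in mice 1, 3, 4, 5 and 6. Mice 1 and 6 were high and mouse 5 was lowest. The mean was 0.0200 ± 0.00743 (SD, n = 5) with a CV of 37.1%, and without mouse 1 it was 0.0179 ± 0.00654 (SD, n = 4). From the lowest to the highest mouse the signal differed by 0.0171, close to 0.0168, the size of the lowest value on the array of mouse 1. The difference between mice was thus about as large as the widest background band of the arrays.

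The deposited signal of Slc2a3 was 0.0198, 0.0102, 0.0160, 0.0098 and 0.0301 in mice 1, 3, 4, 5 and 6. Mouse 6 was highest, and mice 3 and 5 were lowest and close to each other. The mean was 0.0172 ± 0.00834 (SD, n = 5) with a CV of 48.6%, and without mouse 1 it was 0.0165 ± 0.00948 (SD, n = 4). The range of Slc2a3 over the mice was 1.21 times the size of the lowest value on the array of mouse 1, whereas that of Slc2a4 was 8.77 times.

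**Figure D1:**
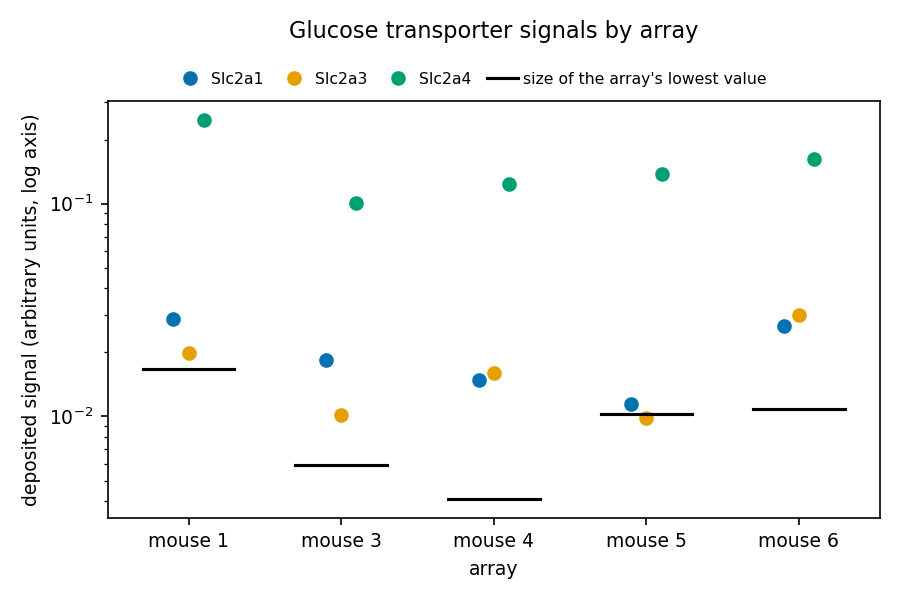
Deposited signal (arbitrary units, log axis) of Slc2a1, Slc2a3 and Slc2a4 on the array of each mouse, 1 point per probe and array, with a bar at the size of that array's lowest value. Slc2a4 lies between 0.101 and 0.248, far above every bar, while Slc2a3 in mouse 5, at 0.0098, falls below its bar at 0.0103.

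In the order of the signals, Slc2a4 came first on all 5 arrays, and Slc2a1 and Slc2a3 did not hold a fixed order behind it. The signal of Slc2a1 was the higher of these in 3 mice and that of Slc2a3 in 2 mice. Their difference exceeded the size of the lowest value only on the array of mouse 3, where it was 0.0082 against 0.0059. On the arrays of mice 1, 4, 5 and 6 the difference was 0.0088, 0.0012, 0.0017 and 0.0034 in size, each smaller than that array's lowest value. On those arrays the signals of Slc2a1 and Slc2a3 did not differ beyond the background.

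The arrays differed in how far below 0 they reached. The lowest value was -0.0168, -0.0059, -0.0041, -0.0103 and -0.0109 in mice 1, 3, 4, 5 and 6. Below 0 there were 53, 35, 20, 59 and 34 probes. The array of mouse 4 thus had the narrowest band of background and that of mouse 1 the widest. Of the 223 probes, 120, 154, 174, 115 and 153 were clear of the negative values in mice 1, 3, 4, 5 and 6. Total signal was smallest in mouse 4 (70.8) and largest in mouse 1 (137), and the arrays had not been brought to a common median or total.

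Set against this background, the Slc2a4 signal was 14.8, 17.1, 30.3, 13.4 and 14.9 times the size of the lowest value in mice 1, 3, 4, 5 and 6. It was clear of the negative values in all 5 mice by a wide margin. The high multiple in mouse 4 goes with the small lowest value of that array, since the Slc2a4 signal itself was the second lowest there.

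The Slc2a1 signal was 1.70, 3.12, 3.61, 1.12 and 2.45 times the size of the lowest value in mice 1, 3, 4, 5 and 6. It too was clear in 5 of 5 mice, but in mouse 5 only by 0.0012. No other probe of that array lay between the lowest value's size and the Slc2a1 signal. The order of the mice in this measure differed from their order in signal: mouse 1 had the highest signal and the second lowest distance.

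The Slc2a3 signal was 1.18, 1.73, 3.90, 0.951 and 2.76 times the size of the lowest value in mice 1, 3, 4, 5 and 6. It was clear in 4 of 5 mice. In mouse 5 it fell short of the lowest value's size by 0.0005, so its value there gives only a bound. In mouse 1 it exceeded that size by 0.003, and 5 dimmer probes of the array were still clear.

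By rank among the 223 probes, Slc2a4 was 32nd, 46th, 45th, 39th and 56th from the brightest in mice 1, 3, 4, 5 and 6. Slc2a1 ranked between 98 and 124, and Slc2a3 between 115 and 134. Both of these dim probes thus lay near the middle of the array, where neighbouring ranks are separated by less than the background. On the array of mouse 5, 59 other probes lay within the size of the lowest value of the Slc2a1 signal, and 68 within that of Slc2a3, against 3 for Slc2a4.

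**Figure D2:**
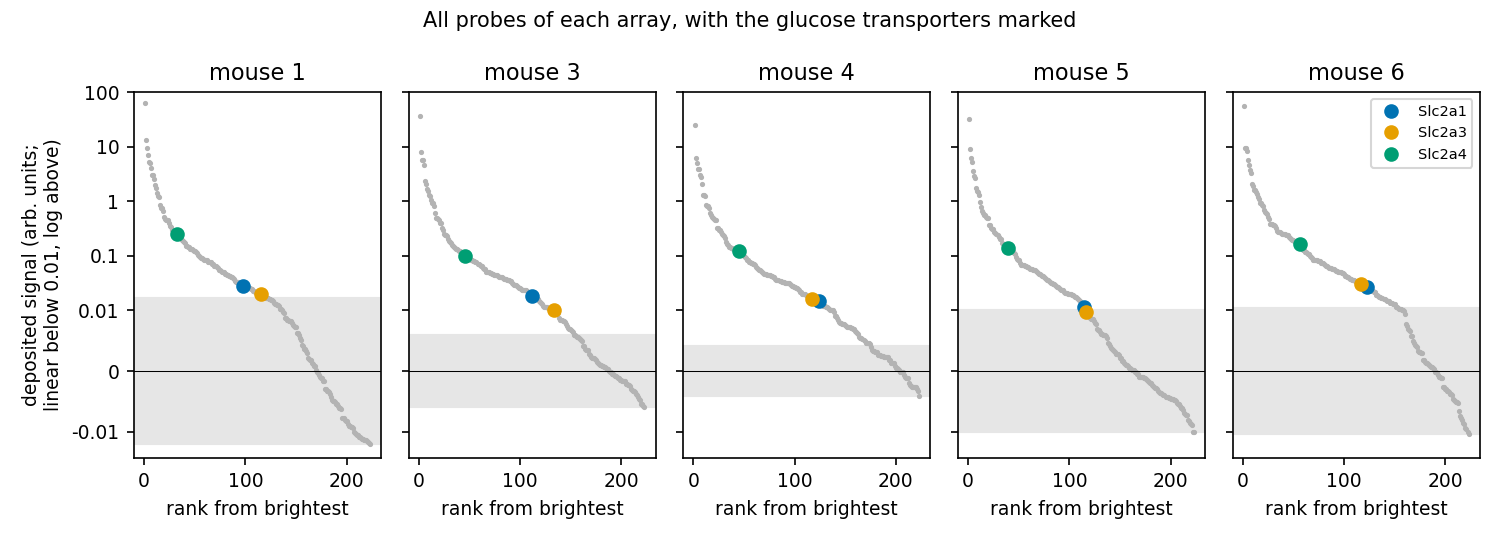
Deposited signal of all 223 probes of each array against their rank from the brightest (grey points), with the 3 transporters marked; the vertical axis is linear below 0.01 and logarithmic above. The grey band spans the array's lowest value and its mirror image above 0, and in mouse 5 Slc2a3 (rank 116) lies inside it and Slc2a1 (rank 114) at its edge.

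The ratio of 2 signals within an array does not change when the whole array is scaled, and so it can be set side by side between mice without a choice of scaling. It is not a ratio of transcripts. The signal of Slc2a4 was 8.68, 5.48, 8.39, 12.0 and 6.07 times that of Slc2a1 in mice 1, 3, 4, 5 and 6. Mouse 5 had the highest ratio, and mice 3 and 6 the lowest. The mean log2 ratio was 2.97 ± 0.45 (SD, n = 5), a geometric mean of 7.81, and 2.93 ± 0.51 (SD, n = 4) without mouse 1. The high ratio of mouse 5 came with the lowest Slc2a1 signal of the group and a middle Slc2a4 signal.

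The signal of Slc2a4 was 12.5, 9.89, 7.76 and 5.38 times that of Slc2a3 in mice 1, 3, 4 and 6. In mouse 5 the deposited values give 14.1, but Slc2a3 was not clear of the negative values there, so that this ratio has no upper end and its place among the mice is not known. Of the other mice, mouse 1 was highest and mouse 6 lowest. The mean log2 ratio was 3.08 ± 0.52 (SD, n = 4) without mouse 5. With the deposited value of mouse 5 it was 3.23 ± 0.56 (SD, n = 5), or 3.13 ± 0.58 (SD, n = 4) when mouse 1 was left out.

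How far background could move these ratios was described by shifting each signal of a pair, in opposite directions, by the size of the array's lowest value. The Slc2a4 to Slc2a1 ratio then spanned 5.10 to 22.5, 3.91 to 8.54, 6.35 to 12.0, 5.86 to 124 and 4.02 to 10.9 in mice 1, 3, 4, 5 and 6. These spans share the values from 6.35 to 8.54, so the differences in this ratio between mice were no larger than the background allows. For Slc2a4 to Slc2a3 the spans were 6.33 to 88.4, 5.90 to 24.8, 5.98 to 10.8 and 3.69 to 9.01 in mice 1, 3, 4 and 6, and from 6.35 upwards in mouse 5. They share the values from 6.35 to 9.01. In every mouse the lower end of both spans stayed above 1, so the Slc2a4 probe remained the brighter of each pair.

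**Figure D3:**
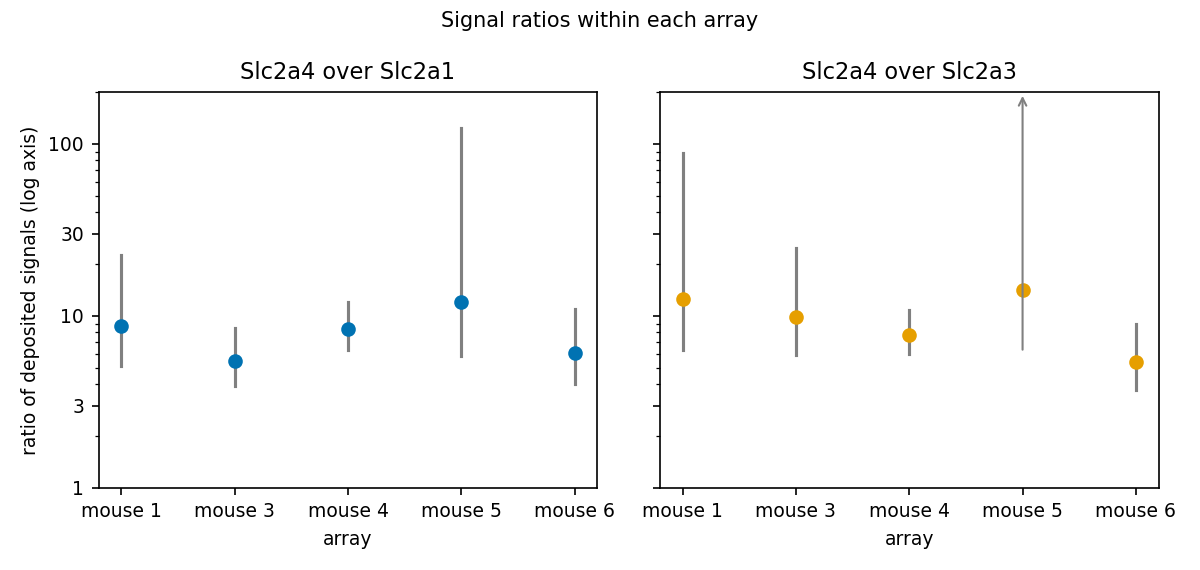
Ratio of the deposited signals (log axis) of Slc2a4 over Slc2a1 and of Slc2a4 over Slc2a3 on the array of each mouse. Points are the ratios, from 5.48 to 12.0 and from 5.38 to 14.1, and vertical lines show the span when both signals are shifted by the size of the array's lowest value; the arrow in mouse 5 has no upper end.

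The ratio of Slc2a1 to Slc2a3 was 1.44, 1.80, 0.925, 1.17 and 0.887 in mice 1, 3, 4, 5 and 6, with no upper end in mouse 5. It lay on both sides of 1, with a mean log2 ratio of 0.27 ± 0.50 (SD, n = 4) without mouse 5. With the deposited value of mouse 5 it was 0.27 ± 0.43 (SD, n = 5), or 0.20 ± 0.47 (SD, n = 4) when mouse 1 was left out. These means all lay within 1 SD of 0.

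Which mouse was high or low depended in part on the scaling, because whole arrays differed in brightness. Values as deposited, divided by the array median, divided by the array total, and quantile normalised were set side by side. Slc2a4 in mouse 1 lay above its own 5-mouse mean under 4 of 4 scalings, by 0.26 to 0.75 on the log2 scale. Mouse 3 lay below the mean of Slc2a4 under all 4, at -0.55 to -0.17. Mouse 6 was above that mean as deposited, at 0.14, and below it under the other scalings, down to -0.60.

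Slc2a1 was above its mean in mouse 1 under all 4 scalings, by 0.11 to 0.60. In mouse 5 it was below the mean under 3 of them, at -0.71 as deposited, and at 0.01 when quantile normalised. Slc2a3 was above its mean in mice 4 and 6 under all 4 scalings and below it in mouse 3, at -0.62 to -0.42. Mouse 3 thus held low signals of Slc2a3 and Slc2a4 whatever the scaling. Its Slc2a1 signal lay between -0.04 and 0.17 of the mean.

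**Figure D4:**
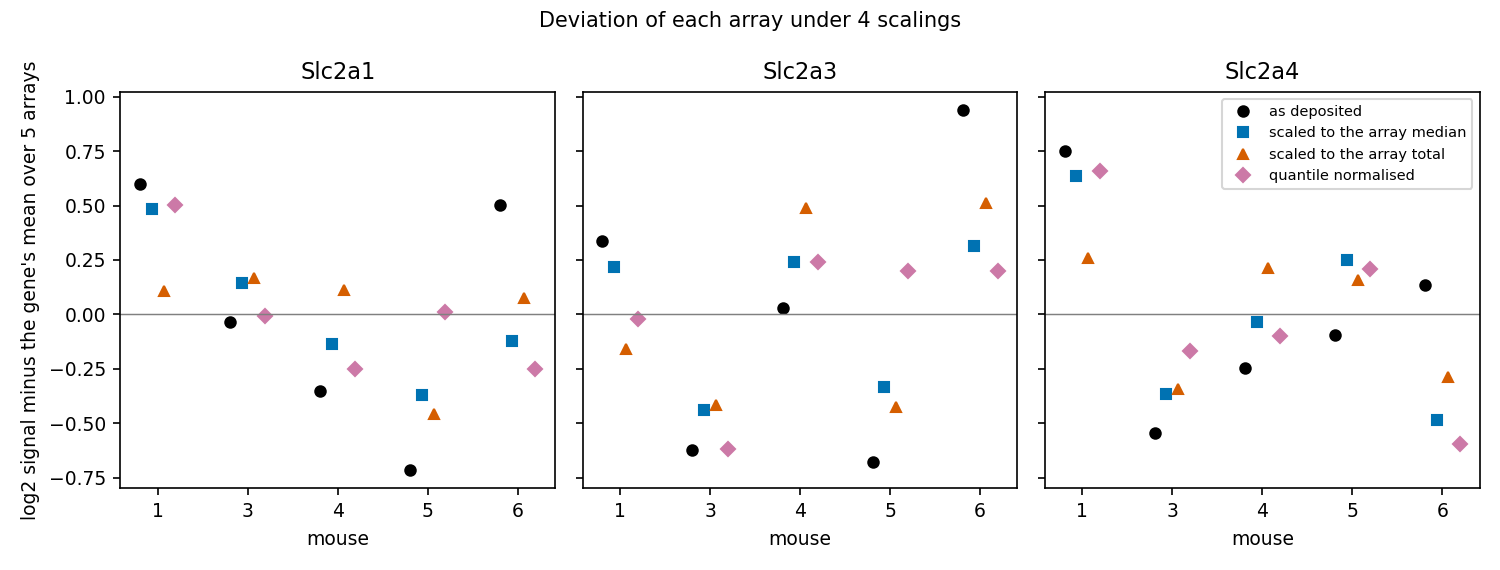
Log2 signal of each transporter on each array minus that gene's mean over the 5 arrays, under 4 scalings (1 symbol each). Slc2a4 lies above 0 in mouse 1 and below 0 in mouse 3 under all 4 scalings, while in mouse 6 it changes from 0.14 as deposited to values below 0.

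How the spread of the transporters stood to that of other probes depended on the scaling, except that Slc2a1 lay below the median probe under all 4. Over the 147 probes above 0 on all arrays, the CV as deposited had a median of 45.2%, with quartiles of 32.7% and 58.7%. Against the 20 probes nearest in mean log2 signal, the CV of Slc2a1 was exceeded by 19, that of Slc2a3 by 11 and that of Slc2a4 by 15. Divided by the array total, the CVs were 15.9% for Slc2a1, 33.0% for Slc2a3 and 19.3% for Slc2a4, against a median of 33.0% over the 147, and 19, 14 and 16 of the near probes were wider. Divided by the array median they were 23.6%, 23.4% and 32.7%, against 33.3%, with 17, 18 and 8 near probes wider. Quantile normalised they were 23.1%, 21.7% and 33.2%, against 32.9%, with 16, 18 and 7 near probes wider. Slc2a4 thus lay below the median probe as deposited and by the total, and near it by the median and quantiles. Slc2a3 lay near the median probe in the first pair of scalings and below it in the second. Without repeat arrays, noise of the measurement and variation among animals cannot be told apart in these CVs.

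The genes whose signal followed each transporter most closely were found by the SD over the 5 mice of the log2 ratio between both probes, in which array scaling cancels. Each transporter was set against 139 other named probes above 0 on all arrays. With so many probes and 5 arrays, some small SDs arise without any relation between the genes, and the values are a description. For Slc2a4 the nearest were Eno2, a glycolytic enolase best known from neurons, Mdh2, the mitochondrial malate dehydrogenase, and Vegfb, a growth factor of the VEGF family. Their SDs were 0.10, 0.14 and 0.15, against a median of 0.63 over the 139. The signal of Slc2a4 was 2.54, 2.24, 2.68, 2.55 and 2.37 times that of Eno2 in mice 1, 3, 4, 5 and 6. This range was narrower than that of Slc2a4 itself, which was 2.46-fold as deposited and 1.52-fold divided by the array total. When any mouse was left out, Eno2 kept a rank of 3 or better, Mdh2 of 4 or better and Vegfb of 6 or better. These probes, like those named next for Slc2a1 and Slc2a3, were picked on the same 5 arrays. Their ranks with a mouse left out are therefore partly fixed by that choice and are no separate support.

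For Slc2a1 the nearest were the laminin chains Lama5 and Lamc1, of the basement membrane, and Ldha, a lactate dehydrogenase subunit. Their SDs were 0.08, 0.10 and 0.14, against a median of 0.50. The signal of Slc2a1 was 0.704, 0.681, 0.751, 0.653 and 0.740 times that of Lama5 in mice 1, 3, 4, 5 and 6. Ldha was itself dim, and was clear of the negative values in 4 of 5 mice.

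For Slc2a3 the nearest were Tnxb, a tenascin of the matrix, Hmox1, which breaks down haem, and the growth factor Egf. Their SDs were 0.12, 0.21 and 0.22, against a median of 0.59. The signal of Slc2a3 was 0.118, 0.125, 0.139 and 0.144 times that of Tnxb in mice 1, 3, 4 and 6. In mouse 5 the deposited value of Slc2a3 was not clear of the negative values, and neither was that of Egf, at 0.0087, so the order of these neighbours is uncertain. With the size of each array's lowest value added to all probes, Tnxb moved from rank 1 to rank 11 for Slc2a3. Lamc1 then moved from rank 2 to rank 11 for Slc2a1, while Eno2, Mdh2 and Vegfb kept ranks 1, 2 and 3 for Slc2a4. When any mouse was left out, Lama5 ranked 4 or better for Slc2a1 and Tnxb 3 or better for Slc2a3, but Ldha and Hmox1 went down to 8 and Egf to 11.

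The transporters were not among the closest probes of one another. Over all 5 mice each pair was nearer than the median probe, but without mouse 1 this did not hold for every pair. The SD of the log2 ratio was 0.45 between Slc2a4 and Slc2a1, 0.56 between Slc2a4 and Slc2a3 and 0.43 between Slc2a1 and Slc2a3. The medians over the 139 probes were 0.63 for Slc2a4, 0.50 for Slc2a1 and 0.59 for Slc2a3. Among the probes nearest to Slc2a4, Slc2a1 ranked 38th and Slc2a3 59th of 139. Among those nearest to Slc2a3, Slc2a1 ranked 31st and Slc2a4 62nd. For Slc2a1, Slc2a3 ranked 56th and Slc2a4 60th. Without mouse 1, Slc2a3 ranked 92nd and Slc2a4 98th for Slc2a1. For Slc2a3, Slc2a1 then ranked 54th and Slc2a4 90th, and for Slc2a4, Slc2a1 ranked 68th and Slc2a3 88th. These SDs include the background in the dim probes. For all 3 transporters the most distant probe was Thbs2, whose deposited signal was 0.0001 in mouse 5.

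Of 45 genes in a list of glucose handling and insulin signalling, 18 were on the array under their annotated name. Of these, 16 were above 0 on all arrays and 10 were clear of the negative values on all. Over the whole array, 147 of the 223 probes were above 0 on all arrays, and 115 to 174 were clear on a single array. Of the 205 named probes, 97 were clear on all arrays, so the listed genes lay near that share. Among the listed genes, the CV as deposited ran from 22.7% for Mef2c to 65.8% for Hk1. Over the 13 genes above 0 on all arrays that are not the 3 transporters, the median was 28.9%. The brightest was the glycolytic enzyme Gapdh, at 8.16 ± 3.18 (SD, n = 5), which like Slc2a4 was highest in mouse 1 and lowest in mouse 3. As deposited, 57 of the 147 probes above 0 on all arrays were highest in mouse 1, and 37 lowest in mouse 3. Hk1, a hexokinase that phosphorylates glucose after its entry, was dim. It was at 0.0107, 0.0110, 0.0097, 0.0021 and 0.0228 in mice 1, 3, 4, 5 and 6, and was clear of the negative values in 3 of them. Insr, the insulin receptor, was above 0 in 3 mice and clear in 1. Its signal ran from -0.0103 to 0.0053, so differences between mice in the insulin receptor could not be read from these arrays.

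Regulators known to act on the transporter genes were also on the array. The MEF2 factors bind the Slc2a4 promoter in muscle. Mef2c was at 0.396, 0.394, 0.324, 0.252 and 0.473 in mice 1, 3, 4, 5 and 6, clear on all arrays. As deposited, mouse 6 was highest and mouse 5 lowest, unlike Slc2a4. That order was common on these arrays: of the 147 probes above 0 on all, 80 were highest in mouse 6 and 69 lowest in mouse 5. Mef2a was at 0.0096, 0.0194, 0.0140, 0.0078 and 0.0235, clear in 3 mice. The SD of the log2 ratio to Slc2a4 was 0.52 for Mef2c and 0.96 for Mef2a.

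Hif1a, the oxygen-regulated factor that raises Slc2a1 in low oxygen, was at -0.0017, 0.0083, 0.0066, 0.0011 and 0.0136 in mice 1, 3, 4, 5 and 6. It was above 0 in 4 mice and clear in 3. Its partner Arnt was at 0.0126, 0.0291, 0.0235, 0.0169 and 0.0415, clear in 4. As deposited, both were lowest in mouse 1, where Slc2a1 was highest, and in mouse 1 neither was clear of the negative values. Of the 147 probes above 0 on all arrays, 57 were highest and 26 lowest in mouse 1. Divided by the array total, Slc2a1 was highest in mouse 3. A relation between these genes was not tested.

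Markers of the labelled tissue were bright. All 6 muscle fibre markers present (Myh7, Myh2, Myh1, Myh4, Mb and Des) were clear of the negative values in every mouse, with a summed signal between 10.7 (mouse 5) and 17.3 (mouse 1). Other cells that carry these transporters were only partly covered. Of 6 endothelial markers, all were above 0 in every mouse and 4 were clear in every mouse, with sums of 0.416, 0.369, 0.512, 0.506 and 0.876 in mice 1, 3, 4, 5 and 6. Of all 223 probes, 147 were above 0 in every mouse, and of the 205 named probes 97 were clear in every mouse. Of 5 listed fat cell markers 2 were on the array: Fabp4 was clear in every mouse, and Lipe was at or below 0 in all. Of 5 listed immune markers 2 were on the array, Il1b and Il6, and both were at or below 0 in every mouse. Whether immune cells were present was not tested by them. None of the listed markers of red blood cells or nerve was among the named probes, so the part of such cells in the transporter signals was not tested. In whole muscle, fewer cells of a type and less RNA per cell cannot be told apart.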

How the data were processed

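The authors deposited linear intensities of 223 probes on 5 arrays, in arbitrary units and to 4 decimals. For scanner, background correction and scaling the method is not given in the sources used here. The values were used as deposited. Probes were named through the platform annotation, with symbols updated to the GRCm38.p6 gene table: 205 probes had 1 symbol, 0 had several and 18 had none, and 204 were found in the table.

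Means, SDs (n = 5), CVs, within-array ratios, ranks and distances from the negative values were computed with pandas 2.3.3, numpy 2.4.6 and scipy 1.17.1 under Python 3.11.15, and drawn with matplotlib 3.10.9. The script for the closest probes was checked on simulated data. The precision is limited by the number of arrays. No difference between groups was tested, since there is 1 group; samples far from the others were sought with Dixon's criterion.

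The 3 members, the gene lists and the settings were chosen with earlier results of these data known. Genes named are the members, the 3 probes closest to each and the farthest, and, from the glucose list, the brightest, widest and narrowest with Mef2a, Mef2c, Hif1a, Arnt and Hk1; Insr and the marker genes were named after their values were seen. Alternatives were other scalings, other background zeros and leaving out each mouse.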

Additional observations from a re-analysis of the deposited data

Results flagged for a closer look

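Of 12 sets of 5 values (signals, ratios and distances of the transporters, and 3 measures of the arrays), 2 had a sample far from the others by Dixon's criterion for 5 samples, which chance meets in about 1 in 20 independent sets. Several of these sets share values and are not independent. The Slc2a4 signal of mouse 4 was 30.3 times the size of that array's lowest value, against 13.4 to 17.1 in the other mice, with a gap of 0.781 of the range. The lowest value of that array was the smallest of the 5 in size, at 0.0041. The mean rank correlation of the array of mouse 1 with the others was 0.878, with a gap of 0.920 of the range. These 5 mean correlations share pairs of arrays, so the rate of about 1 in 20 does not apply to them.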

How the results depend on the processing

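A CV was counted as moved when it changed by over 1.5 times, and a mean log2 ratio when it changed by over 1 SD. The CV of Slc2a1, 37.1% as deposited, was 23.6% scaled to the array median, 15.9% to the total and 23.1% quantile normalised. That of Slc2a3, 48.6%, was 23.4% with the median and 21.7% quantile normalised, and that of Slc2a4, 36.7%, was 19.3% with the total. Scaling to the total without the brightest probe, chosen after seeing the data, gave 18.2%, 30.2% and 20.5% for Slc2a1, Slc2a3 and Slc2a4. Adding the size of each array's lowest value to all probes lowered the mean log2 ratio from 2.97 to 2.48 for Slc2a4 to Slc2a1 and from 3.23 to 2.64 for Slc2a4 to Slc2a3, since it raises dim signals by a larger factor. The other 16 values from changes of scaling or background had not moved by these measures. Leaving out each mouse gave CVs of 29.8% to 41.7% for Slc2a1, 34.6% to 57.4% for Slc2a3 and 19.5% to 42.8% for Slc2a4. The lowest CV came without mouse 5 for Slc2a1, without mouse 6 for Slc2a3 and without mouse 1 for Slc2a4. The mean log2 ratios ranged from 2.81 to 3.09 for Slc2a4 to Slc2a1, from 3.08 to 3.43 for Slc2a4 to Slc2a3 and from 0.12 to 0.37 for Slc2a1 to Slc2a3. The background limits what can be read from Slc2a1 and Slc2a3 in mice 1 and 5. No paired analysis was possible because there is a single group.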

Other observations

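Slc2a2, which encodes GLUT2, the transporter of liver and pancreatic beta cells, gave a signal clear of the negative values on all 5 arrays. Its deposited signals were 0.0495, 0.0391, 0.0718, 0.0647 and 0.0827 in mice 1, 3, 4, 5 and 6, or 2.95, 6.63, 17.5, 6.28 and 7.59 times the size of the array's lowest value. In every mouse this was brighter than the probes of Slc2a1 and Slc2a3. Which transcript the probe detects in soleus was not tested. In mouse 1 the Slc2a4 signal was 5.02 times that of Slc2a2, against 1.73 to 2.58 times in the other mice.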
